A study of Homo sapiens with 24 samples.

Results

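The genes described here encode the enzymes that hydroxylate prolines and lysines of newly made collagen. They are the prolyl 4-hydroxylase α subunits P4HA1, P4HA2 and P4HA3 with the β subunit P4HB, the lysyl hydroxylases PLOD1, PLOD2 and PLOD3, and the prolyl 3-hydroxylases P3H1, P3H2 and P3H3. They were listed by name and not by a filter on measured values, though with earlier results of these data known. They are 10 of the 65180 genes in the table. All 10 passed the filter on low counts in both fits. Each was measured by poly(A) RNA-seq in 24 libraries of HK-2, an immortalised human proximal tubular epithelial cell line, deprived of serum overnight and then treated for 24 h. The 6 groups were normoxic solvent controls (5 libraries), normoxia with BAY 60-2770 (3), hypoxia at 0.3% oxygen with solvent (3), hypoxia with BAY 60-2770 (3), normoxia with TGF-β1 at 2 ng/mL (5) and normoxia with TGF-β1 and BAY 60-2770 (5). BAY 60-2770, called BAY below, activates soluble guanylate cyclase, the cyclic GMP-forming receptor of nitric oxide. Its dose is doubtful: 1 mM is the figure in the labels, and no measured value bears on it. Control cells received the solvents, a trace of DMSO and of hydrochloric acid with albumin.

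Prolyl 4-hydroxylase is a tetramer of paired α and β subunits. The α subunit carries the catalytic site, and P4HB, which is also protein disulfide isomerase, holds the complex in the endoplasmic reticulum. Its product, 4-hydroxyproline, keeps the collagen triple helix stable at body temperature. Lysyl hydroxylation prepares the sites of galactosylation and of intermolecular crosslinks, with PLOD2 acting on the telopeptides, and 3-hydroxylation of single prolines is carried out by P3H1 in fibrillar collagens and mainly by P3H2 in basement membrane collagen. All these hydroxylases need oxygen, 2-oxoglutarate, iron and ascorbate. Oxygen deprivation and TGF-β1 are both classical inducers of collagen-modifying genes, and the proximal tubule is a site of both in kidney fibrosis.

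Library totals ran from 78862372 to 105571090 estimated counts. No pair of replicates agreed within sampling noise. The replicates are labelled biological, but how the cultures were kept apart is not said, so every p-value here refers to spread among cultures of a single line. Within the 3 groups of 5, libraries fell into 2 subsets along the first within-group principal component, computed without the 10 genes. That component held 40.9% of the within-group variance over 14971 genes. Subset 1 held normoxic control replicates 1, 2 and 5 and replicates 1 and 2 of both TGF-β1 groups, and subset 2 held the other 8 libraries. The labels name no such division, the groups of 3 have no assigned subset, and its cause was not tested. Among normoxic controls P4HA1 was 38.4% higher in subset 1 than in subset 2, P4HA3 35.9%, P4HA2 25.1% and PLOD2 22.9%, with no overlap. P4HB was 11.5% higher, PLOD1 10.3%, P3H3 6.36%, PLOD3 5.98% and P3H2 5.67%, also without overlap. P3H1 was 1.37% higher and overlapped. The share of all genes without overlap is not given here, so this is not read as particular to the family. Because of these differences, BAY in normoxia and the interactions are given with each subset as well. In the fits by subset only the groups of 5 were divided. All libraries of the groups of 3 entered the fits of either subset. Epithelial markers were abundant (KRT8 at a mean of 631 CPM, counts scaled by library size, over all libraries), as were PAX8 (313 CPM) and GGT1 (166 CPM) of the proximal tubule. The epithelial marker CDH1 was lower, at 15.8 CPM. Other defining proximal tubule genes were near 0, with LRP2 at 0.150 CPM, ANPEP at 0.265 CPM and AQP1 at 0.575 CPM. In bulk RNA, fewer expressing cells and less RNA per cell cannot be told apart.

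In normoxic controls the β subunit was the most abundant of the 10 transcripts per length. P4HB stood at 119 ± 7.20 CPM per kb of exon (SD, n = 5), PLOD2 followed at 37.9 ± 4.19, and P4HA1 at 28.6 ± 4.92 overlapped PLOD1 at 27.0 ± 1.45. P4HA2 was ninth with 6.27 ± 0.771 CPM per kb, and P4HA3 was last in all 6 groups, with 0.107 ± 0.0177 CPM per kb in controls. In hypoxic controls P4HA1 reached 166 ± 10.6 CPM per kb (SD, n = 3) beside 149 ± 4.28 for P4HB. This order depends on the length assigned to each gene. With the longest transcript in place of all exons, P4HA1 ranked 6 in normoxic controls, and in hypoxia it ranked 2, behind P4HB.

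The sequence just upstream of the members was searched on both strands for the core letters of the site bound by hypoxia-inducible factors, ACGTG or GCGTG. The windows of 3 members are printed because these had the largest rises of the members in hypoxia. The 250 bases before the transcription start come from RefSeq on GRCh38.p14, where 9 of the 10 genes had an entry. All 3 genes lie on the minus strand, at chr10:73096867-73097116 for P4HA1, chr5:132227092-132227341 for P4HA2 and chr3:146161185-146161434 for PLOD2. Capitals mark each match, and CACGT is ACGTG read on the other strand.
P4HA1: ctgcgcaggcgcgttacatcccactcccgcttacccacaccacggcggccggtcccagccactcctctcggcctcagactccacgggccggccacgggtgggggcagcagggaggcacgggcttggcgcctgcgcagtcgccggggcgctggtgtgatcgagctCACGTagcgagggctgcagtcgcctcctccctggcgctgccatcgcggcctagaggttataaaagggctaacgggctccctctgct
P4HA2: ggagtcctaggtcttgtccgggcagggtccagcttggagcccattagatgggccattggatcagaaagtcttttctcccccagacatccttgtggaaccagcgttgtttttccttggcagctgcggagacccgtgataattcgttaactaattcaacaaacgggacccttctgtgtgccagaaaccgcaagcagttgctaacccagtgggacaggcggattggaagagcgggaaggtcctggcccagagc
PLOD2: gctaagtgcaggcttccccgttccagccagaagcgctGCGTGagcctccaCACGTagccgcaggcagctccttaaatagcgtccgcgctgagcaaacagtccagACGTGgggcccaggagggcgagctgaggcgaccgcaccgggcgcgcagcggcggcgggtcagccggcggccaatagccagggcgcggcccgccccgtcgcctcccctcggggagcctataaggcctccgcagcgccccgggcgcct
The P4HA1 window held 1 match, 86 bases before the start. The PLOD2 window held 3, at 213, 200 and 146 bases before the start. The P4HA2 window held no match, which says only that these letters are not in it. Such matches are common: 43.2% of 35116 promoter windows of this length held at least 1 and 7.76% at least 3. PLOD1 had 2 matches, P3H1 and P4HB 1 each, the P3H2 entries 1 and 3, and PLOD3 and P3H3 none.

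**Figure D1:**
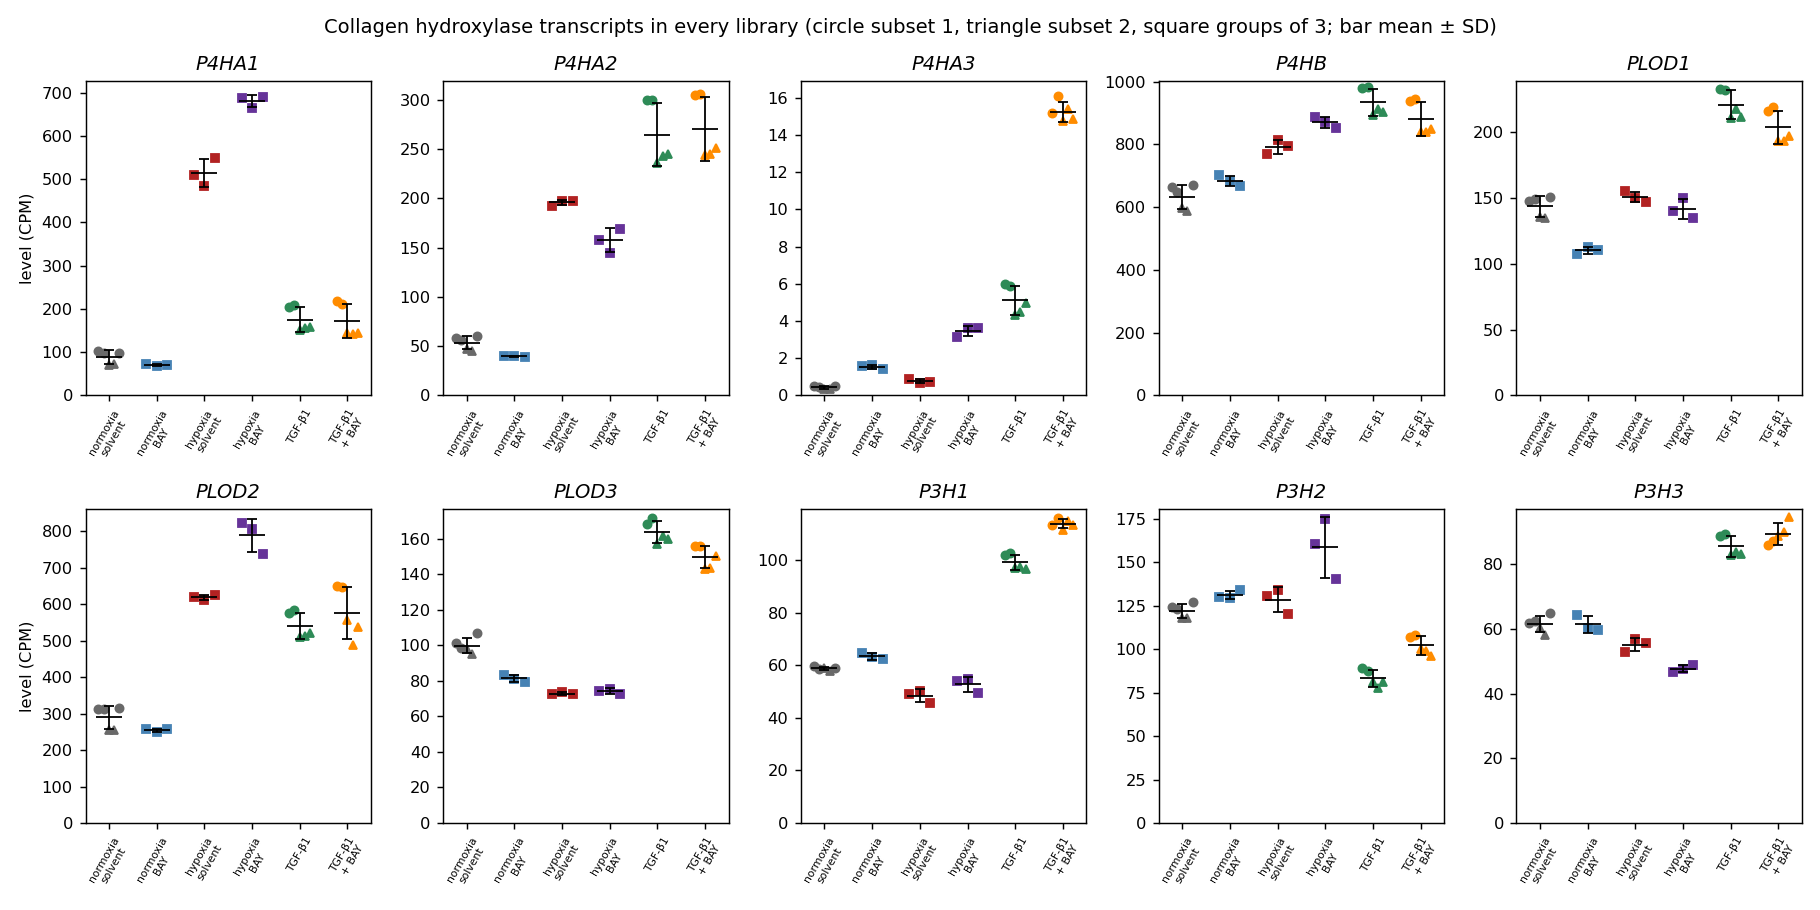
Levels of the 10 transcripts (y axis, CPM) in each library by group (x axis), with the mean ± SD as a bar. P4HA1 stands highest in hypoxia with BAY (665 to 691 CPM), whereas P4HA3 stands highest with TGF-β1 and BAY (14.8 to 16.1 CPM).

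Hypoxia raised the transcripts of all 3 α subunits and of PLOD2, and lowered PLOD3, P3H1 and P3H3. P4HA1 was at 102, 98.0, 71.2, 72.8 and 99.0 CPM in the 5 normoxic controls and at 510, 485 and 550 CPM in the 3 hypoxic controls. All hypoxic libraries lay far above every control, and P4HA1 rose by 2.53 on the log2 scale (SE 0.101, edgeR adjusted p = 1.41e-10), or 5.76-fold. P4HA2 was at 58.0, 56.0, 47.5, 45.1 and 59.7 CPM in normoxic controls and at 193, 198 and 197 CPM in hypoxia. It rose 3.64-fold, by 1.86 (SE 0.0714, edgeR adjusted p = 1.52e-11). P4HA3, an α subunit of low level in this line, had 0.344 to 0.498 CPM in normoxic controls and 0.680 to 0.893 CPM in hypoxia, without overlap. Its rise was 0.84 on the log2 scale (edgeR adjusted p = 1.18e-04). The shared β subunit moved much less: P4HB was at 589 to 669 CPM in controls and at 768 to 814 CPM in hypoxia, a rise of 0.31 (SE 0.0401, edgeR adjusted p = 6.15e-06).

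Among lysyl hydroxylases the 3 genes went 3 ways. PLOD2, the telopeptide enzyme, was at 312, 312, 255, 254 and 315 CPM in normoxic controls and at 619, 611 and 624 CPM in hypoxia. It rose 2.11-fold, by 1.08 on the log2 scale (SE 0.0627, edgeR adjusted p = 6.13e-10). PLOD3, which also glycosylates hydroxylysine, was at 95.0 to 107 CPM in controls and at 72.4 to 73.6 CPM in hypoxia, and fell by 0.47 (SE 0.0331, edgeR adjusted p = 5.22e-09). PLOD1, an enzyme of helical lysines, was at 135 to 151 CPM in controls and at 147 to 155 CPM in hypoxia, groups that overlapped, and was not called (log2 difference 0.05, edgeR adjusted p = 0.275). Against the subset 2 controls alone the PLOD1 difference was 0.16 and was called (edgeR adjusted p = 0.0134). Of the prolyl 3-hydroxylases, P3H1 fell by 0.30 (57.9 to 59.9 CPM in controls, 45.6 to 50.3 CPM in hypoxia) and P3H3 by 0.17 (58.2 to 64.8 CPM against 52.8 to 56.9 CPM). P3H3 was not called against subset 2 alone, where the difference was -0.10 (edgeR adjusted p = 0.0820). P3H2 overlapped between groups at 118 to 127 and 120 to 134 CPM and was not called.

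In all, 5 members rose and 3 fell in hypoxia, where 29.2% of all genes tested were called higher and 31.6% lower. The median over the 10 members was 0.18 on the log2 scale, beside -0.02 over all genes. The benchmark targets of hypoxia-inducible factors moved in these libraries, with 9 of 9 tested genes higher, among them CA9 by 6.94 and ADM by 4.36.

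**Figure D2:**
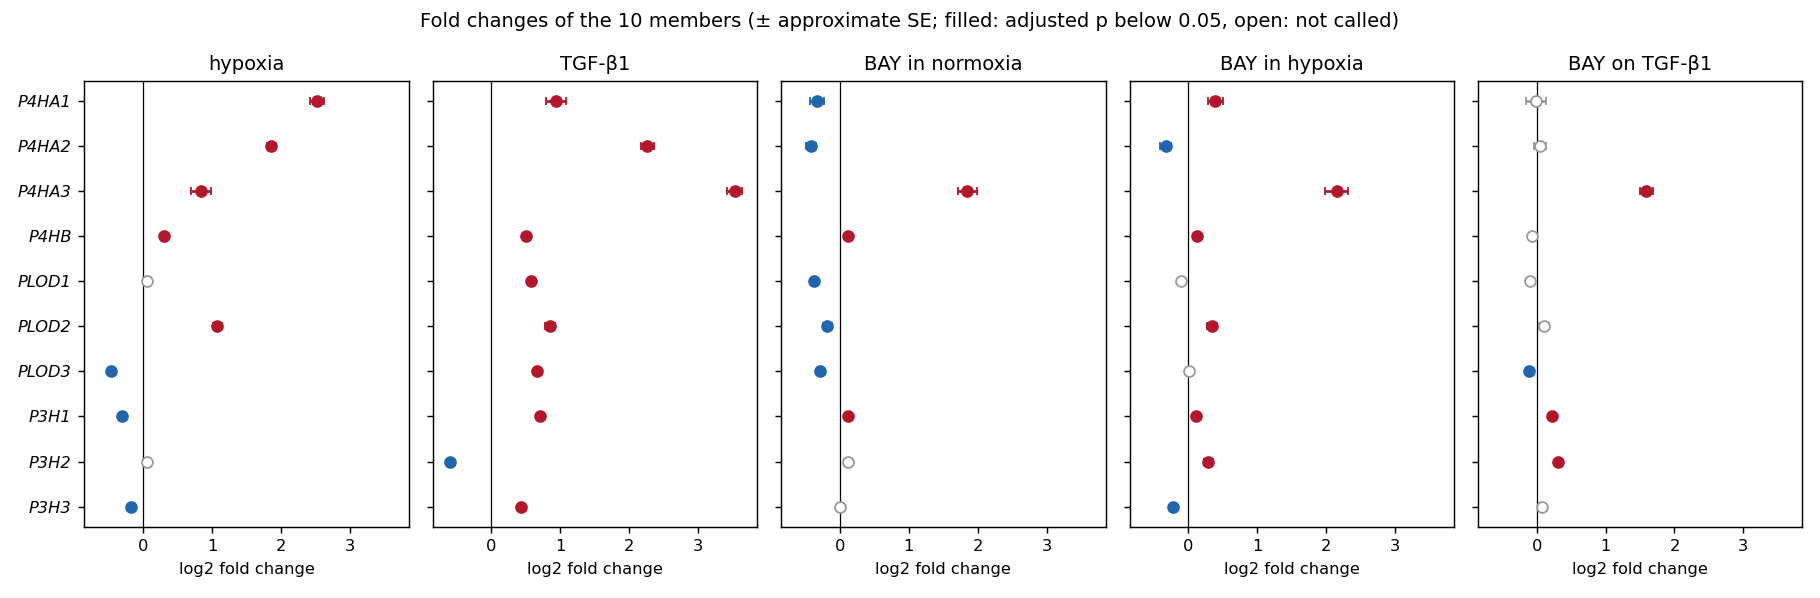
Log2 fold change of each member (x axis, ± approximate SE) in 5 comparisons, with called rises in red, called falls in blue and open points for differences not called. P4HA1 has the largest rise in hypoxia (2.53), P4HA3 the largest with TGF-β1 (3.53), and P4HA3 is the member with the largest rise in each BAY panel.

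TGF-β1 raised 9 of the 10 members and lowered P3H2, and no member was left uncalled. The background in this comparison was 29.5% of genes called higher and 32.5% lower, and the median of the members was 0.68 beside -0.04 over all genes. P4HA3 was at 0.479, 0.457, 0.344, 0.359 and 0.498 CPM in normoxic controls and at 6.00, 5.89, 4.33, 4.46 and 4.95 CPM with TGF-β1. The groups were far apart, and P4HA3 rose 11.5-fold, by 3.53 on the log2 scale (SE 0.114, edgeR adjusted p = 6.96e-15). P4HA2 was at 300, 299, 236, 243 and 245 CPM with TGF-β1, each far above the 45.1 to 59.7 CPM of the controls. It rose 4.79-fold, by 2.26 (SE 0.0937, edgeR adjusted p = 6.40e-13). P4HA1 was at 205, 208, 152, 155 and 157 CPM with TGF-β1, with subset 1 above subset 2 as in the controls. Its rise was 0.93 on the log2 scale (SE 0.148, edgeR adjusted p = 3.48e-05), and 1.03 within subset 1 and 1.07 within subset 2. P4HB rose by 0.51, from 589 to 669 CPM in controls to 893 to 982 CPM with TGF-β1 (edgeR adjusted p = 5.29e-09).

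All 3 lysyl hydroxylases rose with TGF-β1. PLOD2 was at 577, 583, 509, 513 and 522 CPM, and rose by 0.85 (SE 0.0771, edgeR adjusted p = 2.25e-08). PLOD3 was at 157 to 172 CPM with TGF-β1 and rose by 0.66, and PLOD1 was at 211 to 233 CPM and rose by 0.57. Every TGF-β1 library of these 3 genes lay above every control. The prolyl 3-hydroxylases split. P3H1 was at 96.8 to 103 CPM and rose by 0.70 (SE 0.0208, edgeR adjusted p = 2.10e-15), and P3H3 was at 82.8 to 89.3 CPM and rose by 0.42. P3H2 was at 124, 123, 118, 118 and 127 CPM in controls and at 89.0, 87.3, 81.0, 77.9 and 80.9 CPM with TGF-β1. It fell by 0.60 on the log2 scale (SE 0.0351, edgeR adjusted p = 3.02e-11), with no overlap.

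The α subunits also differed from each other in their response. P4HA2 made up 18.0% ± 0.971 (SD, n = 5) of the summed α subunit transcripts per kb of exon in normoxic controls. Its share was 12.2% ± 0.685 (SD, n = 3) under hypoxia and 35.1% ± 0.929 (SD, n = 5) after TGF-β1. By the longest transcript these shares were 33.8%, 24.4% and 55.5%, so the share itself depends on the length used, while the order of the 3 groups was the same. This share was chosen after the values were seen and is given as a description without a test. Hypoxia and TGF-β1 were compared with the same normoxic controls.

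**Figure D3:**
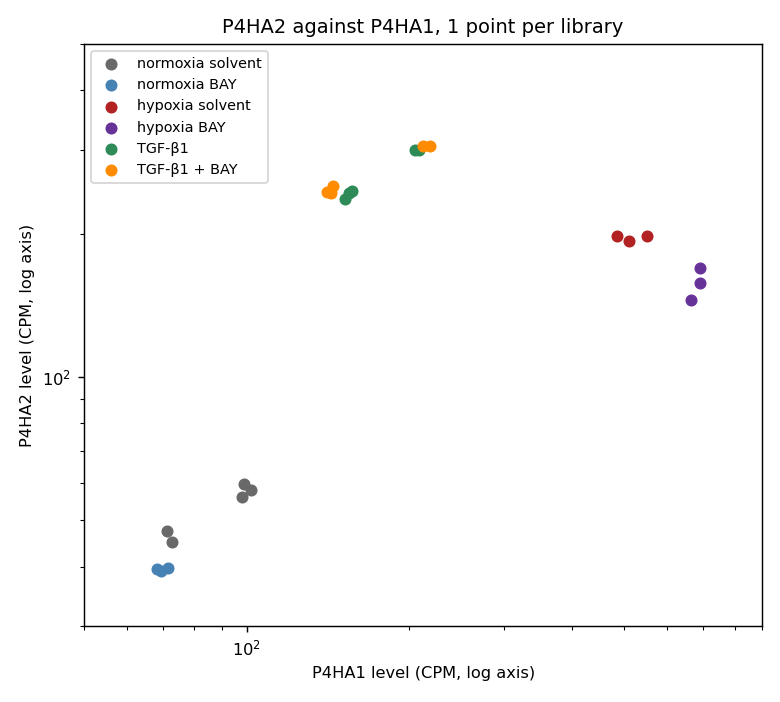
P4HA2 (y axis, CPM, log scale) against P4HA1 (x axis, CPM, log scale), 1 point per library, coloured by group. Hypoxic libraries lie to the right (P4HA1 485 to 691 CPM) and TGF-β1 libraries at the top (P4HA2 236 to 306 CPM), and each group of 5 splits into its 2 subsets.

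BAY in normoxia raised P4HA3 and lowered P4HA2, PLOD1 and PLOD3, and these 4 calls were made with every library left out in turn and within either subset. P4HA3 was at 1.56, 1.63 and 1.41 CPM with BAY, against 0.344 to 0.498 CPM in the controls, and rose 3.61-fold, by 1.85 on the log2 scale (SE 0.141, edgeR adjusted p = 4.40e-08). P4HA2 was at 39.7, 39.6 and 39.2 CPM, below every control, and fell by 0.42 (SE 0.0750, edgeR adjusted p = 3.63e-04). P4HA2 fell by 0.55 against subset 1 and fell by 0.23 against subset 2, so its size depends on the controls used. PLOD1 was at 107, 113 and 111 CPM with BAY, below its control range of 135 to 151 CPM, and fell by 0.37 (SE 0.0423, edgeR adjusted p = 3.66e-06). PLOD3 was at 83.3, 81.2 and 79.4 CPM and fell by 0.29 (SE 0.0328, edgeR adjusted p = 3.84e-06).

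The other 4 calls in normoxia depended on the libraries used. P4HA1 was at 71.6, 68.2 and 69.5 CPM with BAY, next to the subset 2 controls at 71.2 and 72.8 CPM and below the subset 1 controls at 98.0 to 102 CPM. It was called lower by 0.33 (edgeR adjusted p = 0.0204). The log2 difference was -0.52 against subset 1 and -0.05 against subset 2 (edgeR adjusted p = 0.529). PLOD2 was at 256, 248 and 257 CPM, overlapping the subset 2 controls at 254 and 255 CPM. Its log2 difference was -0.18 (edgeR adjusted p = 0.0332), -0.30 against subset 1 and -0.01 against subset 2. P4HB was called higher by 0.12 and P3H1 higher by 0.11. P4HB was called against subset 2 alone (0.20) and not against subset 1 (0.05), and P3H1 was called against neither. Leaving out any 1 of the 3 BAY libraries ended each of these 4 calls, while the values stayed at -0.36 to -0.33 for P4HA1, -0.20 to -0.18 for PLOD2 and 0.09 to 0.12 for P4HB and for P3H1. Calls were also ended by leaving out control replicate 3 or 4 for P4HB (0.10 each) and replicate 1, 2 or 5 for PLOD2 (-0.16, -0.15 and -0.15). P4HA1 was not called without a filter on low counts (edgeR adjusted p = 0.0644), and neither was P4HB (edgeR adjusted p = 0.0573). With all libraries in 1 fit P4HA1, PLOD2 and P4HB were not called (edgeR adjusted p = 0.0750, 0.0525 and 0.0924). P4HB also missed the threshold with DESeq2 size factors (edgeR adjusted p = 0.0821). P3H2 and P3H3 were not called, at 0.11 and 0.01, and P3H2 was called without hypoxic BAY replicate 3 (edgeR adjusted p = 0.0333).

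Thus 3 members were called higher and 5 lower with BAY in normoxia, against 20.6% of all genes higher and 23.3% lower. The member median was -0.09, beside 0.00 over all genes.

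**Figure D4:**
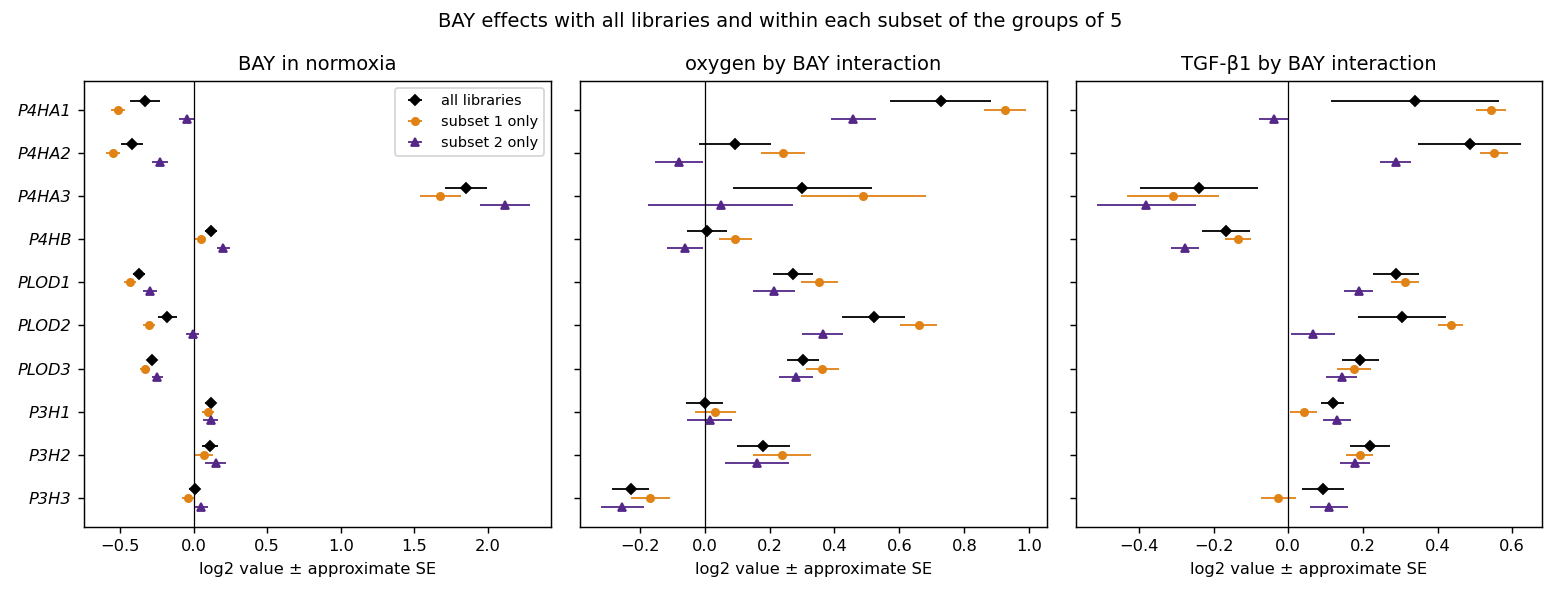
Log2 values of each member (x axis, ± approximate SE) for BAY in normoxia and for the 2 interactions, with all libraries and with either subset of the groups of 5. P4HA1 moves from -0.52 to -0.05 between subsets for BAY in normoxia, whereas PLOD3 stays between -0.33 and -0.25.

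In hypoxia, BAY left P4HA1 and P4HA2 moving in opposite directions. P4HA1 was at 689, 665 and 691 CPM with BAY against 510, 485 and 550 CPM in hypoxic controls, with no overlap, and rose by 0.39 (SE 0.114, edgeR adjusted p = 0.0152). Without hypoxic control replicate 2 the P4HA1 difference was 0.35 and missed the threshold (edgeR adjusted p = 0.0619). It also missed without a filter on low counts (edgeR adjusted p = 0.0502) and with all libraries in 1 fit (edgeR adjusted p = 0.0764). P4HA2 was at 158, 145 and 169 CPM against 193, 198 and 197 CPM, and fell by 0.33 (SE 0.0810, edgeR adjusted p = 0.00504). P4HA3 was at 3.15, 3.60 and 3.64 CPM against 0.893, 0.680 and 0.743 CPM. It rose 4.45-fold, by 2.15 (SE 0.162, edgeR adjusted p = 6.07e-08).

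PLOD2 was at 821, 805 and 738 CPM with BAY in hypoxia, above the 611 to 624 CPM of hypoxic controls, and rose by 0.34 (SE 0.0715, edgeR adjusted p = 0.00136). P3H2 was at 161, 175 and 140 CPM, above its hypoxic control range of 120 to 134 CPM, and rose by 0.29 (edgeR adjusted p = 0.00131). P3H3 fell by 0.22, to 46.6 to 48.8 CPM from 52.8 to 56.9 CPM (edgeR adjusted p = 7.53e-04). PLOD1 and PLOD3 overlapped between groups and were not called, with log2 differences of -0.10 and 0.02. Without hypoxic BAY replicate 2, PLOD1 was called at -0.15. P4HB (0.13, edgeR adjusted p = 0.0388) and P3H1 (0.12, edgeR adjusted p = 0.0458) were called higher by narrow margins. With the replicate number as a block, P3H1 missed the threshold (0.12, edgeR adjusted p = 0.0579). It also missed by limma voom (limma voom adjusted p = 0.0555) and without a filter on low counts (edgeR adjusted p = 0.114). P4HB missed with DESeq2 size factors (edgeR adjusted p = 0.0579) and without that filter (edgeR adjusted p = 0.114). With all libraries in 1 fit P4HB missed as well (edgeR adjusted p = 0.0529). The P4HB call was lost in 8 of the 14 fits that left out 1 library, with differences from 0.10 to 0.14, and the P3H1 call in 9, from 0.08 to 0.13. For either gene these were the fits without hypoxic control replicate 1 or 3 or hypoxic BAY replicate 1 or 2. For P4HB they were also those without hypoxic control replicate 2, normoxic control replicate 2 or normoxic BAY replicate 2 or 3, and for P3H1 those without any 1 of the 5 normoxic controls. In all, 6 members were called higher and 2 lower, beside 16.5% and 21.4% of all genes, with a member median of 0.12 beside -0.02 over all genes.

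Whether the BAY effect differed between hypoxia and normoxia was tested by the interaction. It was called higher for 4 members and lower for 1, where 8.83% of all genes were called higher and 7.92% lower, and the median was 0.23 over members and -0.03 over all genes. P4HA1 had the largest value, 0.73 on the log2 scale (SE 0.155, edgeR adjusted p = 0.00649), and it was 0.92 with subset 1 controls and 0.46 with subset 2 controls, called in each. PLOD2 gave 0.52 (SE 0.0963, edgeR adjusted p = 0.00174), with 0.66 and 0.36 in the subsets. PLOD3 gave 0.30 and PLOD1 0.27, since both fell with BAY in normoxia and were not called in hypoxia. P3H3 gave -0.23 (edgeR adjusted p = 0.0137), a call that was lost without normoxic BAY replicate 1 (-0.17) or 2 (-0.21). P4HA3, which rose with BAY at both oxygen levels, had an interaction of 0.30 that was not called (edgeR adjusted p = 0.381). P4HA2 was not called with all libraries (0.09), but it gave 0.24 with subset 1 controls, where it was called (edgeR adjusted p = 0.0144), and -0.08 with subset 2 controls. P3H2 gave 0.18 and was not called, but it was called without hypoxic BAY replicate 3, at 0.26.

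On top of TGF-β1, BAY raised P4HA3, P3H2 and P3H1 and lowered PLOD3. P4HA3 was at 15.2, 16.1, 14.8, 15.4 and 14.9 CPM with both agents against 6.00, 5.89, 4.33, 4.46 and 4.95 CPM with TGF-β1 alone. It rose 3.02-fold, by 1.59 on the log2 scale (SE 0.0978, edgeR adjusted p = 8.53e-10). P3H2 was at 107, 108, 100, 99.3 and 96.2 CPM, above every TGF-β1 library and below every normoxic control, and rose by 0.31 (SE 0.0350, edgeR adjusted p = 1.72e-06). P3H1 was at 114, 116, 112, 115 and 113 CPM against 96.8 to 103 CPM, and rose by 0.22 (edgeR adjusted p = 2.48e-07). PLOD3 was at 143 to 156 CPM against 157 to 172 CPM and fell by 0.11 (edgeR adjusted p = 0.0115).

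The 6 other members overlapped between the groups with TGF-β1. P4HA2 was at 305, 306, 244, 245 and 251 CPM with both agents, nearly on top of the values with TGF-β1 alone, and its log2 difference was 0.05 (SE 0.0890). P4HA1 was at 218, 212, 143, 141 and 145 CPM with a difference of -0.01 (SE 0.146). Within subsets the P4HA1 values diverged, at 0.06 in subset 1 and -0.09 in subset 2, where it was called (edgeR adjusted p = 0.0122). P3H3 likewise gave -0.04 in subset 1 and 0.15 in subset 2, where it was called (edgeR adjusted p = 0.00259). PLOD2 was called in subset 1 (0.16, edgeR adjusted p = 4.04e-04) and not in subset 2 (0.05), and P4HB was called in subset 2 (-0.08). PLOD1 was called in each subset, at -0.10 and -0.11, and with the replicate number as a block (-0.10, edgeR adjusted p = 0.0210). With the subset as a covariate, 7 members were called, PLOD2 (0.10), P4HB (-0.07) and PLOD1 (-0.10) in addition to the 4 above. Calls were more frequent over all genes too. That fit called 4316 genes higher and 4432 lower of 20430, against 3012 and 3374 of 21639 without the covariate. PLOD1 was also called without TGF-β1 and BAY replicate 1 or 2, each at -0.12. In the fit without that covariate, 3 members were called higher and 1 lower, against 13.9% and 15.6% of all genes. The medians were 0.06 over members and 0.01 over all genes.

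The interaction of TGF-β1 with BAY was called higher for 5 members and lower for 0, where 13.7% of all genes were called higher and 7.08% lower; the medians were 0.21 and 0.03. That 0 is by edgeR; limma voom and DESeq2 also called 0 members lower. At an unadjusted p below 0.05, 1 member was lower, P4HB at -0.17, and P4HB was called within each subset (-0.14 in subset 1 and -0.28 in subset 2). P4HA2 had the largest value, 0.49 (SE 0.138, edgeR adjusted p = 0.0178), with 0.55 in subset 1 and 0.29 in subset 2. PLOD1 gave 0.29, P3H2 0.22, PLOD3 0.19 and P3H1 0.12. P3H1 was not called within subset 1 (0.04). Without a filter on low counts, P4HA2 (edgeR adjusted p = 0.0536) and P3H1 (edgeR adjusted p = 0.0948) missed the threshold. PLOD2 was not called (0.31, edgeR adjusted p = 0.0760), but it was called within subset 1 (0.43) and not within subset 2 (0.07, edgeR adjusted p = 0.480). It was also called with all 24 libraries in 1 fit (0.31) and without control replicate 3 or 4 or TGF-β1 and BAY replicate 4 (0.35 to 0.36). P4HA1 was not called with all libraries (0.34, edgeR adjusted p = 0.331), but its value was 0.54 within subset 1, where it was called, and -0.04 within subset 2. Both of these fits hold the same 3 normoxic BAY libraries, which have no assigned subset. Their P4HA1 levels (68.2 to 71.6 CPM) lay next to the subset 2 controls (71.2 and 72.8 CPM). The part of this in the subset values was not tested.

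Ratios within the enzyme families were tested across libraries by exact 2-sided permutation tests, adjusted over 10 tests. The sum of the α subunits over P4HB, each per kb of exon, was 0.292 ± 0.0310 in normoxic controls (SD, n = 5) and 1.27 ± 0.0864 in hypoxia (SD, n = 3). The log2 difference was 2.13, 4.37-fold (exact permutation p = 0.0179, the smallest that 3 against 5 allows, adjusted p = 0.0357). By the longest transcript these ratios were 0.192 and 0.787, and without division by length 0.223 and 0.898 (geometric means). Whether the α sum exceeds P4HB in hypoxia thus depends on the length used. Without control replicate 4 or any 1 hypoxic library the log2 difference per kb of exon stayed between 2.08 and 2.18, but fewer libraries raise the smallest p, and the adjusted value missed the threshold. In cells given TGF-β1 this ratio stood at 0.504 ± 0.0508 (SD, n = 5), a difference of 0.79 (exact permutation p = 0.00794, adjusted p = 0.0265). BAY in normoxia gave 0.214 ± 0.00369 (SD, n = 3), a difference of -0.44 that missed the threshold after adjustment (exact permutation p = 0.0357, adjusted p = 0.0595). It passed by the longest transcript (-0.45, adjusted exact permutation p = 0.0298) and when control replicate 1, 2, 3 or 5 was left out (-0.49 to -0.41). BAY in hypoxia gave 1.46 ± 0.0518 against 1.27, where 3 against 3 libraries cannot go below an exact permutation p of 0.1, the value reached. BAY on TGF-β1 gave 0.544 ± 0.0654 (SD, n = 5), which did not pass (exact permutation p = 0.317). That test used neither the replicate numbers nor the subsets. By replicate number from 1 to 5 the ratio was 0.624, 0.608, 0.496, 0.494 and 0.501 with TGF-β1 and BAY. With TGF-β1 alone it was 0.558, 0.561, 0.463, 0.464 and 0.475, lower for each number.

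The share of PLOD2 among the 3 lysyl hydroxylases, per kb of exon, went from 45.8% ± 1.71 in normoxic controls (SD, n = 5) to 66.2% ± 0.535 in hypoxia (SD, n = 3), a difference of 20.4 percentage points (exact permutation p = 0.0179, adjusted p = 0.0357). As for the subunit ratio, the adjusted value missed the threshold without control replicate 4 or any 1 hypoxic library, where the difference lay between 19.98 and 20.59 points. With TGF-β1 it was 50.1% ± 0.672 and with TGF-β1 and BAY 53.6% ± 1.95 (SD, n = 5 each). Both steps, of 4.24 and 3.56 percentage points, passed (exact permutation p = 0.00794 and adjusted p = 0.0265 for each). It was 72.2% ± 0.839 in hypoxia with BAY (SD, n = 3), all 3 libraries above the hypoxic controls, with an exact permutation p of 0.1. In normoxia with BAY it was 48.6% ± 0.736, and the difference of 2.80 percentage points did not pass (adjusted exact permutation p = 0.102).

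**Figure D5:**
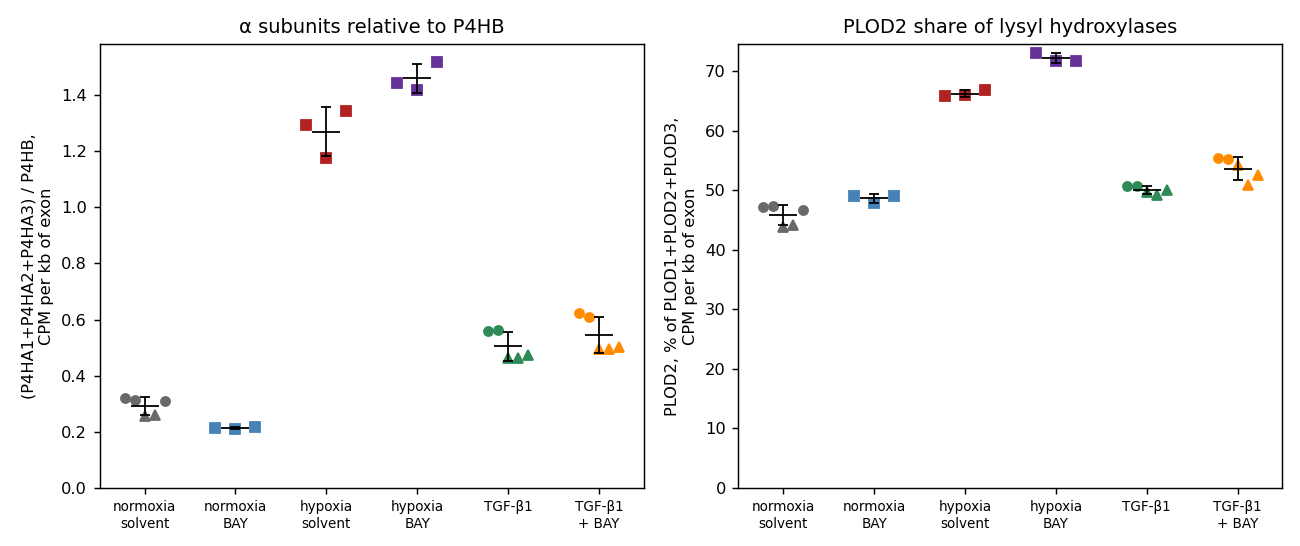
Left, the summed α subunits over P4HB (y axis, ratio of CPM per kb); right, PLOD2 as a percent of the 3 lysyl hydroxylases (y axis), 1 point per library by group (x axis), with mean ± SD. Hypoxic libraries stand apart, with α to β ratios from 1.17 to 1.52 and PLOD2 shares from 65.9% to 73.1%. By the longest transcript the hypoxic ratios were 0.787 with solvent and 0.860 with BAY (geometric means).

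The partners of these enzymes and their collagen substrates were read from lists of genes, whose counts stand beside the shares of all genes called. Those were 29.5% higher and 32.5% lower with TGF-β1, 29.2% and 31.6% in hypoxia, 20.6% and 23.3% with BAY in normoxia, 16.5% and 21.4% with BAY in hypoxia, and 13.9% and 15.6% with BAY on TGF-β1. Short lists with counts near these shares are no result about the list, as for the partners in hypoxia. Of 10 folding and modification partners, 8 rose and 2 fell with TGF-β1, led by COLGALT2, a collagen galactosyltransferase, which fell by 2.12, and PPIB, the cyclophilin of the P3H1 complex, which rose by 0.86. CRTAP, the third protein of that complex, fell by 0.32. In hypoxia 2 partners rose and 4 fell, with FKBP10, the chaperone that assists PLOD2, higher by 0.56 and FKBP14 lower by 0.51. The partner medians were 0.28 with TGF-β1 and -0.04 in hypoxia. With BAY in normoxia 3 rose and 3 fell, FKBP10 by 0.76 and the collagen chaperone SERPINH1 by -0.57; the values were 0.45 and -0.40 with BAY in hypoxia, where 2 rose and 2 fell. With BAY on TGF-β1, 3 rose and 3 fell, with COLGALT1 lower by 0.42 and SERPINH1 by 0.38.

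Among 10 tested processing and crosslinking genes, 6 rose and 3 fell in hypoxia, with the lysyl oxidases LOX higher by 3.78 and LOXL2 by 1.31. With TGF-β1, 6 rose and 2 fell, with LOX higher by 3.94 and the proteinase enhancer PCOLCE2 by 1.66. The list medians were 0.44 in hypoxia and 0.18 with TGF-β1. BAY in normoxia raised 2 and lowered 5, with LOXL2 lower by 0.94 and LOXL1 by 0.76. BAY in hypoxia raised 2 and lowered 2, with LOXL4 lower by 0.95 and LOXL1 by 0.68. On TGF-β1, BAY lowered 4, and the other 6 were not called, with the propeptidase ADAMTS14 lower by 1.25 and LOXL4 by 0.65. ADAMTS14 was near 0, at 0.134 ± 0.0602 CPM with TGF-β1 and 0.0545 ± 0.0318 CPM with BAY added (SD, n = 5 each).

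Fibrillar collagen chains were mostly low in this line. Of 6 tested, 4 rose with TGF-β1 and the other 2 were not called, with COL5A1 higher by 2.93 and COL1A1 by 2.61. The level of COL1A1 went from 36.0 ± 2.15 CPM without to 227 ± 7.52 CPM with TGF-β1 (SD, n = 5 each). In hypoxia 1 rose, while COL5A1 fell by 2.86 and COL11A1 fell by 2.29. These were low levels, from 1.54 to 0.212 CPM for COL5A1 and from 2.03 to 0.415 CPM for COL11A1. The medians were 1.29 with TGF-β1 and -1.41 in hypoxia. Basement membrane chains divided with TGF-β1, with 2 higher and 3 lower of 5 tested, and COL4A4 lower by 1.39 and COL4A6 by 1.12. Both of these were near 0, at 0.148 and 0.147 CPM in normoxic controls. The abundant chains, named after their values were seen, were the 2 that rose, COL4A1 from 1266 to 2520 CPM (0.94 on the log2 scale) and COL4A2 from 1879 to 2613 CPM (0.42). In hypoxia 2 were higher and 2 lower, with COL4A6 lower by 1.36 and COL4A5 by 0.47. The medians were -0.72 with TGF-β1 and 0.24 in hypoxia. The fibroblast marker list, of which COL1A1 is a member, had a summed level of 108 to 132 CPM in normoxic controls and 292 to 305 CPM with TGF-β1. The same sum was 161 to 169 CPM with BAY in normoxia, 124 to 130 CPM in hypoxia, 224 to 242 CPM with BAY in hypoxia and 261 to 287 CPM with TGF-β1 and BAY. COL1A2, COL3A1, PDGFRA and THY1 of that list were at or near 0, and LUM was at 80.7 ± 9.85 CPM in controls, 59.7 ± 5.81 CPM with TGF-β1 (SD, n = 5 each) and 123 ± 3.34 CPM with BAY in normoxia (SD, n = 3). PDGFRB was at 1.39 CPM in controls, 10.8 CPM with TGF-β1 and 0.949 CPM with BAY in normoxia. DCN was at 0.667, 0.472 and 5.21 CPM in the same groups. The sum of proximal tubule markers was 416 to 486 CPM in controls and 289 to 347 CPM with TGF-β1. It was 272 to 348 CPM with TGF-β1 and BAY and 640 to 660 CPM with BAY in normoxia. In hypoxia it was 558 to 621 CPM, and 766 to 909 CPM with BAY. PAX8 and GGT1 made up most of it, at 253 and 198 CPM in controls, and the markers did not move together. With TGF-β1, PAX8 was at 219, GGT1 at 89.0 and SLC34A1 at 0.199 CPM, the last from 2.62 CPM. AQP1 went from 0.0225 to 1.54 CPM and CUBN from 0.481 to 1.81 CPM. From hypoxia to hypoxia with BAY, PAX8 went from 374 to 609 CPM and GGT1 from 214 to 225 CPM. The sum of epithelial markers was 1305 to 1489 CPM in controls and 905 to 965 CPM with BAY in normoxia. In hypoxia it was 1385 to 1538 CPM, and 1096 to 1107 CPM with BAY there. With TGF-β1 it was 1265 to 1549 CPM, and 1069 to 1386 CPM with BAY added. The epithelial markers did not move together with TGF-β1. CDH1 went from 28.9 CPM in controls to 4.07 CPM, EPCAM from 341 to 164 CPM and KRT19 from 106 to 59.9 CPM. KRT8 went from 618 to 819 CPM and KRT18 from 314 to 335 CPM. Nor did these markers move together with BAY in normoxia or in hypoxia. With BAY in normoxia CDH1 was higher, at 34.6 CPM. KRT8 (362 CPM), KRT18 (181 CPM), KRT19 (47.5 CPM) and EPCAM (303 CPM) were lower there. In hypoxia CDH1 was at 13.4 CPM, KRT8 at 576 CPM and EPCAM at 334 CPM, below controls. KRT19 at 182 CPM and KRT18 at 359 CPM were above them. The part of these markers in the results was not tested.

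The enzymes of disulfide formation, to which P4HB belongs by its second function, rose in 7 of 8 cases with TGF-β1 and fell in 1, with PDIA4 higher by 0.95 and PDIA5 by 0.92. In hypoxia 1 rose, the oxidase ERO1A by 1.77, and 4 fell, led by PDIA4 by 0.98. The medians were 0.70 with TGF-β1 and -0.21 in hypoxia. BAY on TGF-β1 lowered 5 of them, the other 3 not being called, with PDIA6 lower by 0.41. Of 6 other 2-oxoglutarate oxygenases, 3 rose and 2 fell in hypoxia, with the oxygen sensors EGLN3 higher by 3.21 and EGLN1 by 1.66. Of these, 2 rose and 2 fell with TGF-β1, with P4HTM lower by 1.09 and OGFOD1 higher by 0.53. Of 6 genes of ascorbate and iron uptake, 3 rose and 2 fell in hypoxia, led by the glucose and dehydroascorbate transporters SLC2A1 (3.03) and SLC2A3 (2.69). With TGF-β1 2 rose and 2 fell, with the ascorbate transporter SLC23A1 lower by 3.83 and SLC2A1 higher by 1.31. The benchmark targets of hypoxia-inducible factors were lower in 8 of 9 cases with BAY in normoxia, with CA9 at -1.84 and VEGFA at -1.41, and 2 were higher and 2 lower with BAY in hypoxia. CA9 was near 0 in normoxia, at 0.0707 CPM in controls and 0.0188 CPM with BAY. With TGF-β1, its benchmark target TGFBI, an extracellular matrix protein, was higher by 4.83.

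Over the 24 libraries, the genes whose log2 CPM followed each member most closely were named by Pearson's r among 11193 genes, as a description, since all libraries share the group structure. P4HA1 was followed most closely by ALDOA, a glycolytic aldolase (r = 0.994), P4HA2 by VIM, vimentin (0.993), and P4HA3 by CYP24A1, the vitamin D 24-hydroxylase (0.991). PLOD2 was followed by JPT2 (0.987) and PLOD1 by VASP, an actin regulator (0.989). PLOD3 followed SHC1 (0.996) and PPIB (0.994), P3H1 followed ULK1 (0.994) and the retrieval receptor KDELR2 (0.994), and P3H3 followed FHOD1 (0.988). P4HB had FXYD5 (0.980) and P3H2 had MIDEAS (0.969) as the closest. Among the members, P4HA1 went with PLOD2 (r = 0.891), P4HA2 with P4HB (0.920), and P3H1 with P3H3 (0.954), while P3H2 ran against PLOD3 (-0.886).

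Some members share exon sequence positions with other genes, and whether the counting used strand is not given in the sources used here. P4HA3, at chromosome 11 from 74235801 to 74311657 on the minus strand of GRCh38, shares 4.14% of its exon bases with PPME1 on the other strand, which stood at 61.2 CPM. PPME1 differed by 0.66 on the log2 scale in hypoxia, -0.31 with BAY in normoxia, 0.13 with BAY in hypoxia, 0.23 with TGF-β1 and 0.00 with BAY on TGF-β1. The part of PPME1 in the P4HA3 values was not tested. PLOD3 shares 7.56% of its exon bases with ZNHIT1 on the other strand (61.4 CPM). ZNHIT1 rose with TGF-β1, by 0.25 (edgeR adjusted p = 4.58e-05), as PLOD3 did, and was not called in the other 4 comparisons. P3H3 shares 2.48% with GPR162 on the same strand (10.4 CPM). GPR162 fell by 0.33 in hypoxia, where P3H3 fell, and fell by 1.12 with TGF-β1, where P3H3 rose, and was not called with BAY. The part of these genes was not tested either. The antisense gene P4HA2-AS1 was near 0.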

How the data were processed

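The deposited values are estimated counts, 1 per Ensembl gene ID and library, for 24 libraries. The submitters' processing notes name Salmon, DESeq2 and GRCh38 (hg38), without their roles. Tool versions, the annotation and the strand setting are not stated there. Of the values above 0, 48.6% were not whole, and all were rounded. Symbols came from a table of gene names that held 58919 of 65180 IDs. Exon lengths and positions are those of GENCODE 29, which may not be the authors' annotation.

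Groups were taken from the sample titles. In edgeR 4.0.16 (R 4.3.3), with TMM scaling and filterByExpr, the robust quasi-likelihood test, 2-sided, was fitted to the 14 libraries of the hypoxia experiment (21316 genes) and the 18 of the TGF-β1 experiment (21639 genes). Both contain the same 8 normoxic libraries without TGF-β1, so the comparisons with normoxic controls share them. P-values were adjusted over all genes by the Benjamini-Hochberg method and called below 0.05. Each SE is the absolute log2 fold change over the square root of F, and so approximate. Levels are CPM scaled by TMM over all 24 libraries. At 78862372 to 105571090 counts per library, replicate spread rather than counting limited most values.

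All members were named in every comparison, and of each other list the 2 called genes of largest change, with further genes (CRTAP, and COL1A1 by level) named after their values were seen. The list of TGF-β1 targets is given by 1 gene, and its other result is not reported here. The members and lists were chosen with earlier results of these data known. Alternatives were DESeq2 1.42.0, limma voom (limma 3.58.1), DESeq2 size factors, no filter, all libraries in 1 fit, a replicate block and leaving out each library. The subsets were added after seeing the data. The labels do not say what a replicate number marks. Same-numbered libraries deviated together between TGF-β1 with and without BAY (5 pairs, r from 0.25 to 0.48), where the numbers also separate the subsets. They also did so between hypoxia with and without BAY (3 pairs, r from 0.12 to 0.16). Only the replicate block, an alternative, took these libraries as pairs. The main edgeR fits and the exact permutation tests were unpaired. In the other comparisons not every pair was above 0.1.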

Additional observations from a re-analysis of the deposited data

Results flagged for a closer look

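The effect of BAY differed between hypoxia and normoxia by the interaction test for 5 members. Of these, 4 were called higher and 1 lower, beside 8.83% and 7.92% of all genes. The P3H3 call was lost without normoxic BAY replicate 1 or 2. The log2 differences between the 2 effects were 0.73 for P4HA1, 0.52 for PLOD2, 0.30 for PLOD3, 0.27 for PLOD1 and -0.23 for P3H3. For P4HA1 and PLOD2 the value was smaller against the subset 2 normoxic controls (0.46 and 0.36) than against subset 1 (0.92 and 0.66). The effect of BAY likewise differed with and without TGF-β1 for P4HA2 (0.49), PLOD1 (0.29), P3H2 (0.22), PLOD3 (0.19) and P3H1 (0.12). All 5 were called higher, where 13.7% of all genes were called higher and 7.08% lower. P3H1 was not called within subset 1 (0.04). PLOD1 and PLOD3 stand in both sets, which share the 8 normoxic libraries without TGF-β1. The part of the subsets in these values was not tested beyond the fits within each.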

How the results depend on the processing

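No member value called with all libraries changed sign under any alternative. In the TGF-β1 comparison all 270 member values kept their direction and call, in hypoxia 218 of 220, with BAY on TGF-β1 251 of 270, in the TGF-β1 by BAY interaction 245 of 260, in the oxygen by BAY interaction 200 of 220, with BAY in hypoxia 193 of 220 and with BAY in normoxia 183 of 220. Without a filter on low counts, 5 members were called with BAY in hypoxia and 3 in the TGF-β1 by BAY interaction. Over all genes, those fits called 3064 higher and 4127 lower of 38974, and 2330 higher and 1246 lower of 40559. With BAY in normoxia, 5 members were called against subset 2, where 3497 genes were higher and 3804 lower of 21663. With all libraries in 1 fit 5 were called, where 3761 genes were higher and 5279 lower of 22132. When a library was left out 4 to 9 were called. Those fits called 3396 to 4588 genes higher and 4267 to 5107 lower, of 21209 to 21896. With BAY on TGF-β1, 8 members were called within subset 2 and 7 with the subset as a covariate. Over all genes, those fits called 3667 higher and 3600 lower of 21683, and 4316 higher and 4432 lower of 20430. Within subset 1, all genes called numbered 5821 in the oxygen by BAY interaction and 7100 in the TGF-β1 by BAY interaction. The cause was not tested.

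The ratio of α to β subunits with BAY in normoxia passed by the longest transcript (-0.45) and without division by length (-0.46), and ranged from -0.49 to -0.41 with a library left out. In hypoxia it ranged from 2.08 to 2.18 and the PLOD2 share from 19.9 to 20.8 percentage points. Within subsets 1 and 2, where few libraries keep the exact test from passing, the ratio differed by 2.01 and 2.30 in hypoxia and by 0.83 and 0.86 with TGF-β1. The PLOD2 share there differed by 19.2 and 22.3 points in hypoxia, 3.64 and 5.67 with TGF-β1, and 4.62 and 2.86 with BAY on TGF-β1.

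Signs changed for values not called with all libraries. P3H3 with BAY in normoxia was -0.0061 by DESeq2, -0.0061 by its size factors, -0.039 against subset 1, -0.013 with all libraries in 1 fit, and -0.038 to 0.023 with a library left out. For the oxygen by BAY interaction, P3H1 was -0.00046 by limma voom and -0.0072 without a filter (-0.036 to 0.043 with a library left out), P4HB was -0.00033 without a filter and -0.061 with subset 2 (-0.019 to 0.052), and P4HA2 was -0.079 with subset 2. With BAY on TGF-β1 in subset 1, P4HA1 was 0.055 and P3H3 -0.038, and P4HA1 ranged from -0.11 to 0.050 with a library left out. For the TGF-β1 by BAY interaction P3H3 was -0.027 in subset 1 and P4HA1 -0.039 in subset 2.

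In the 2 comparisons where the numbers paired the libraries, a replicate block called PLOD1 with BAY on TGF-β1 (-0.10) and ended the call of P3H1 with BAY in hypoxia (0.12). Elsewhere, where libraries share only a number, the block ended the calls of P4HB (0.11) and P3H1 (0.11) with BAY in normoxia and called P4HB (-0.15) and PLOD2 (0.34) in the TGF-β1 by BAY interaction. It changed no other member's call.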
